A study of Mus musculus with 6 samples.

Results

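Primary granule proteases and myeloperoxidase were examined through 7 genes, Mpo, Elane, Prtn3, Ctsg, Prss57, Ms4a3 and Srgn, out of 22180 genes measured on 6 microarrays of mouse leukaemia cells. The members were chosen by name with earlier results of these data known, so shares of all genes given beside them are description and not a test. Each was read by 1 probe set with 1 gene symbol. The arrays came from 3 Evi1 Tg and 3 WT samples of unfractionated acute myeloid leukaemia cells, all driven by the fusion oncogene MLL-AF9 on a C57BL/6J background and left untreated. Evi1 Tg leukaemias carried in addition an Evi1 transgene, whose promoter and form no source used here gives, and Evi1 is a zinc finger transcription factor encoded by Mecom. Each sample was total RNA of 10000 GFP+ cells from a sorter, so the arrays read a bulk population. Whether samples of one group derive from different animals is not stated in the labels. The p-values below therefore set each difference only against the spread between these samples, and whether they extend to other animals is not known.

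Primary, or azurophil, granules are made at the promyelocyte stage of neutrophil and monocyte development, before the late granules of maturing neutrophils. They hold myeloperoxidase and the neutrophil serine proteases, which are stored bound to the proteoglycan serglycin and are released onto ingested microbes. Messenger RNA of these proteins is abundant in promyelocytes and is lost as the cells mature, and it serves as a mark of myeloid commitment in leukaemia.

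Values are intensities from the deposited table. Differences are those of log2 intensity, Evi1 Tg minus WT, and each has limma's moderated standard error (SE). A background limit of 74.9 was set as the 90th percentile of the mean intensities of 65 measured genes that are silent in blood cells. All 7 members had a difference above 0, against 53.5% of all genes, with a median of 0.35 against a median of 0.012 over all genes. No member passed the test (0 of 7, limma with Benjamini-Hochberg adjustment over all genes, smallest adjusted p = 0.139), and 0.00902% of all genes passed it as higher in Evi1 Tg. At an unadjusted limma p under 0.05 there were 3 members, Mpo, Prss57 and Elane, where 4.5% of all genes were higher at that level. For the same 3 members every Evi1 Tg array lay above every WT array, as it did for 7.08% of all genes.

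**Figure D1:**
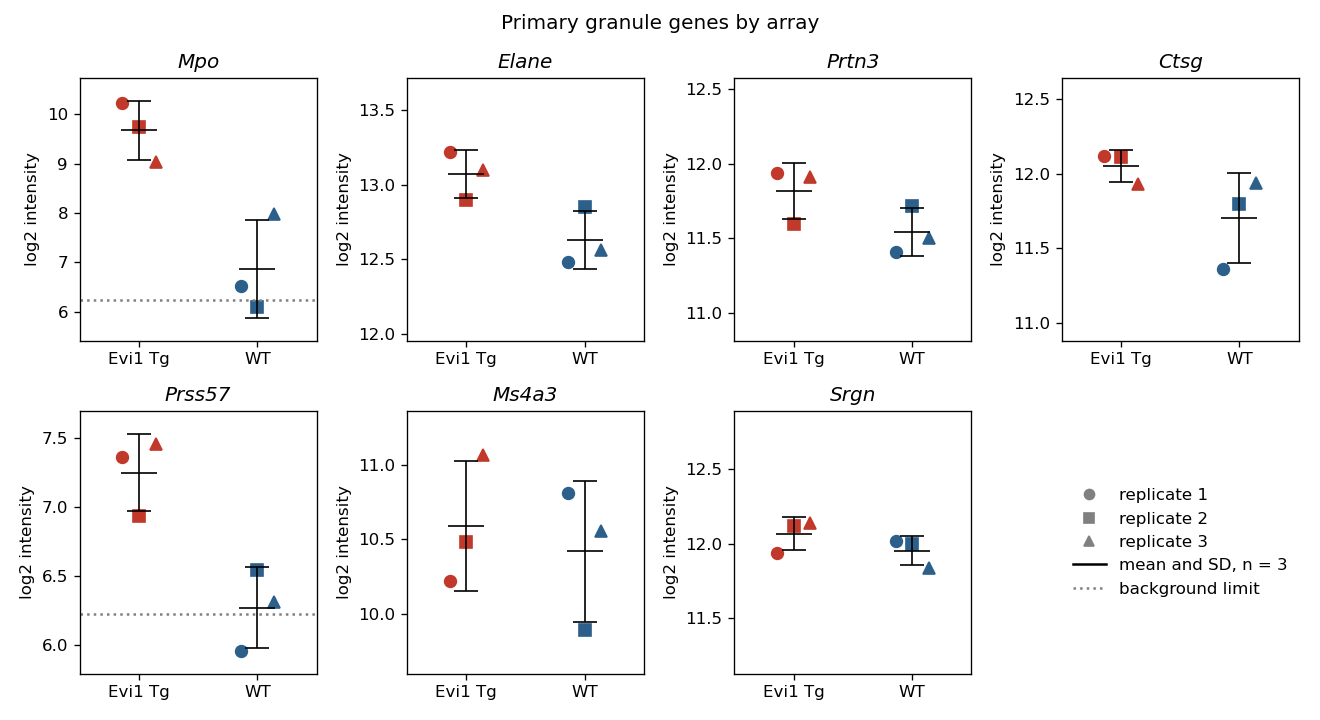
Log2 intensity (vertical axis, scale set per gene) of the 7 primary granule genes on the 3 Evi1 Tg arrays (red) and the 3 WT arrays (blue), with mean and SD and, where it lies in range, the background limit of 74.9 (log2 6.23, dotted). The groups do not overlap for Mpo, Elane and Prss57, and WT 3 is the highest WT array for Mpo.

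Mpo encodes myeloperoxidase, the haem enzyme that turns hydrogen peroxide and chloride into hypochlorous acid. Its intensity was 1192 in Evi1 Tg 1, 863 in Evi1 Tg 2 and 525.3 in Evi1 Tg 3, against 92.7 in WT 1, 68.1 in WT 2 and 252.5 in WT 3. The groups did not overlap, and the lowest Evi1 Tg array was 2.08-fold above the highest WT array. WT 2 lay below the background limit and WT 1 close above it, so background bounds the size of the difference. The mean log2 intensity was 9.67 ± 0.60 in Evi1 Tg and 6.87 ± 0.99 in WT (SD, n = 3 each). The difference was 2.80 (SE 0.507, limma adjusted p = 0.139), a 6.97-fold higher level with a 95% confidence interval of 3.04 to 15.98. An exact two-sided permutation test of 3 against 3 arrays gave p = 0.1, the smallest value it can give.

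Among the 22180 genes 2 had a larger fitted difference than Mpo, Hpgd (3.40), which degrades prostaglandins, and Elovl6 (2.88), which elongates fatty acids. Both were named after their values were seen. The WT mean of Elovl6 (60.0) lay under the background limit, as did WT 2 alone for Mpo (68.1), so the order of these differences is not measured exactly. Whether Mpo passed depended on WT 3, and the WT arrays spread over 3.71-fold. Without WT 3 the Mpo difference was 3.36 with a limma adjusted p of 0.0175. With array weights, in which WT 3 had the lowest weight of 0.455, it was 3.20 with a limma adjusted p of 0.0343. These fits also called more genes over all genes, with 383 higher without WT 3 and 32 with array weights, against 2 in the main fit. For Mpo the adjusted p ranged from 0.0175 to 0.523 over 17 alternatives, and its difference stayed between 2.41 and 3.36. The mean difference of the other 6 members was 0.39.

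Elane encodes neutrophil elastase, a serine protease that cleaves elastin and bacterial outer membrane proteins. Its intensity was 9509, 7651 and 8775 in Evi1 Tg 1, 2 and 3, against 5720, 7402 and 6054 in WT 1, 2 and 3. WT 2 lay close below Evi1 Tg 2, a gap of 1.03-fold, while the other WT arrays lay lower. The difference was 0.44 (SE 0.131, 95% interval 0.13 to 0.75, limma adjusted p = 0.310, n = 3 per group), with an exact two-sided permutation p of 0.1. It stayed between 0.36 and 0.55 when any 1 array was left out.

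Prtn3 encodes proteinase 3, the elastase-like protease that is the antigen of antineutrophil cytoplasmic antibodies in human vasculitis. It read 3925, 3099 and 3846 in Evi1 Tg 1, 2 and 3, against 2713, 3370 and 2902 in WT 1, 2 and 3. The groups overlapped, since WT 2 lay above Evi1 Tg 2. The difference of 0.27 (SE 0.129, 95% interval -0.03 to 0.58, limma adjusted p = 0.538) did not pass.

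Ctsg encodes cathepsin G, a serine protease of mixed chymotrypsin-like and trypsin-like specificity. Intensities of 4460, 4416 and 3906 were recorded in Evi1 Tg 1, 2 and 3, against 2636, 3569 and 3919 in WT 1, 2 and 3. WT 3 reached the level of Evi1 Tg 3, so the groups overlapped, and WT 1 was the lowest array. The Ctsg difference was 0.35 (SE 0.155, 95% interval -0.01 to 0.72, limma adjusted p = 0.504). It was 0.19 without WT 1 and 0.47 without WT 3.

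Prss57 encodes neutrophil serine protease 4, the trypsin-like member of the group that cuts after arginine. It was dim, at 164.4, 121.9 and 175.4 in Evi1 Tg 1, 2 and 3, against 62.3, 92.9 and 79.5 in WT 1, 2 and 3. Every Evi1 Tg array lay above every WT array, with a gap of 1.31-fold, and WT 1 lay below the background limit. The mean intensity was 153.9 ± 28.3 in Evi1 Tg and 78.2 ± 15.3 in WT (SD, n = 3 each). The difference was 0.98 (SE 0.189, 95% interval 0.53 to 1.42, limma adjusted p = 0.160), a 1.97-fold higher level, and 0.221% of all genes had a larger one. It stayed between 0.82 and 1.14 when any 1 array was left out, and its smallest adjusted p over 17 alternatives was 0.0726, with array weights.

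Ms4a3 encodes a membrane protein of granulocyte and monocyte progenitors that is a modulator of the cell cycle. It read 1191, 1424 and 2143 in Evi1 Tg 1, 2 and 3, against 1795, 950 and 1505 in WT 1, 2 and 3. Evi1 Tg 3 was the highest array and WT 2 the lowest, with the other 4 mixed between them. The Ms4a3 difference was 0.17 (SE 0.288, 95% interval -0.51 to 0.85, limma adjusted p = 0.918), and it turned to -0.07 without Evi1 Tg 3 and to -0.10 without WT 2. Its order of arrays thus differed from that of Mpo, for which Evi1 Tg 1 was the highest array and Evi1 Tg 3 the lowest Evi1 Tg array.

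Srgn encodes serglycin, the proteoglycan core protein that packs the granule proteases. It varied least of the members over the 6 arrays, at 3924, 4441 and 4510 in Evi1 Tg 1, 2 and 3, against 4146, 4083 and 3677 in WT 1, 2 and 3. The groups overlapped, with a spread of 1.15-fold among Evi1 Tg arrays and 1.13-fold among WT arrays. Its difference was 0.11 (SE 0.0951, 95% interval -0.11 to 0.34, limma adjusted p = 0.788), an interval that runs from 0.93-fold to 1.26-fold.

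**Figure D2:**
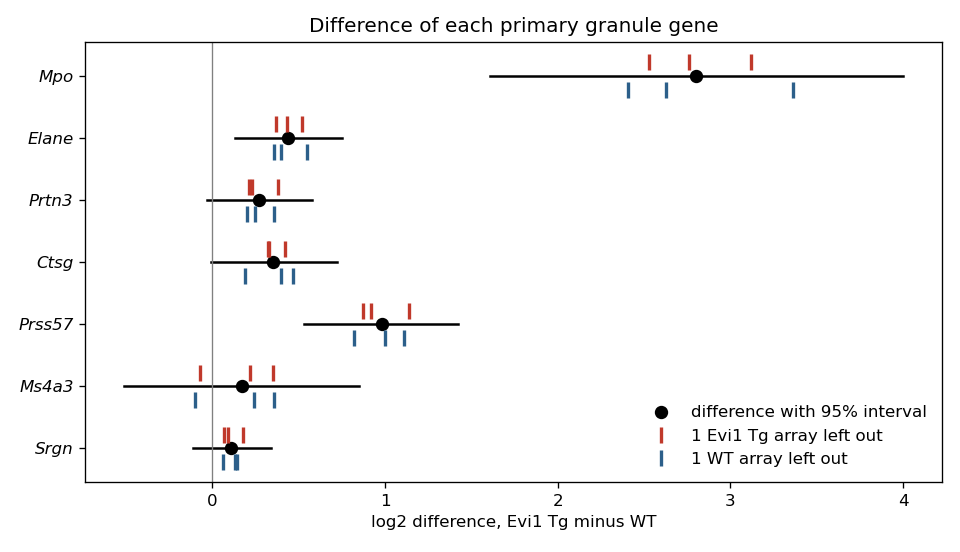
Log2 difference, Evi1 Tg minus WT (horizontal axis), of each primary granule gene with its 95% confidence interval (black), and the difference with 1 Evi1 Tg array (red) or 1 WT array (blue) left out. The intervals of Mpo (1.61 to 4.0), Prss57 (0.53 to 1.42) and Elane (0.13 to 0.75) lie above 0, and the Ms4a3 difference lies on both sides of 0 when single arrays are left out.

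Across the 7 genes the mean log2 deviation from the mean over the 6 arrays was 0.44, 0.28 and 0.38 in Evi1 Tg 1, 2 and 3, against -0.48, -0.44 and -0.18 in WT 1, 2 and 3. Without Mpo it was 0.19, 0.07 and 0.32 in Evi1 Tg, against -0.27, -0.15 and -0.16 in WT, so the groups stayed apart but closer. Mpo alone deviated by 1.95, 1.48 and 0.77 in Evi1 Tg, against -1.73, -2.18 and -0.29 in WT. WT 1 was the lowest array for Elane, Prtn3, Ctsg and Prss57, whereas WT 2 was the lowest for Mpo and Ms4a3.

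Elane, Prtn3 and Prss57 lie near each other on chromosome 10, Mpo lies beside the peroxidase genes Lpo and Epx on chromosome 11, and Ctsg stands among mast cell protease and granzyme genes on chromosome 14. Ms4a3 belongs to a gene cluster on chromosome 19, and Srgn lies elsewhere on chromosome 10. In the annotation of assembly GRCm38.p6, 44 other protein-coding genes lay within 4 genes of a member on either side, of which 41 were measured. Among them 18 had a difference above 0, 0 passed the limma test and 4 had an unadjusted limma p under 0.05 (10.3% of all genes did so in either direction), with a median of -0.02 and a range of -0.49 to 0.69. All Evi1 Tg arrays lay above all WT arrays for 4 of the 41, as for 7.08% of all genes. They lay below for 2, as for 7.47% of all genes. Those above were Mks1 (0.19) near Mpo, and Rnf126, Plppr3 and Palm in the stretch that holds Elane, Prtn3 and Prss57. Rnf126 had a difference of 0.58 (limma adjusted p = 0.168). Plppr3 had 0.41 (limma adjusted p = 0.202) and Palm 0.38 (limma adjusted p = 0.280). Those below were Oosp2 (-0.14) near Ms4a3 and Hk1 (-0.23) near Srgn. Next to Mpo, Lpo had a difference of 0.09 and Epx one of -0.33, both with means under the background limit in both groups. Beside Ctsg, Mcpt8 had a difference of -0.16 (74.4 in Evi1 Tg and 85.4 in WT), with overlapping groups.

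Promoter sequences were at hand for 6 of the 7 members (RefSeq, build GRCm38.p6), with Srgn represented by 2 start sites. The 250 bases before the start are shown for the peroxidase gene and 3 of the proteases, because these 4 windows share a 6-letter match, GAGGAA, the core bound by PU.1 and other ETS factors, set in capitals. They lie at chr11:87793534-87793783 on the plus strand for Mpo, chr10:79886062-79886311 on the plus strand for Elane, chr10:79879417-79879666 on the plus strand for Prtn3 and chr14:56102575-56102824 on the minus strand for Ctsg.
Mpo: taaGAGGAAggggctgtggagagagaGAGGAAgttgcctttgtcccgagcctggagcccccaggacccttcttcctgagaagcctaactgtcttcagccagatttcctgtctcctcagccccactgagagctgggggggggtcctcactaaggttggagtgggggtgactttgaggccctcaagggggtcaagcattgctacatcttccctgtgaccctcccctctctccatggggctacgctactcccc
Elane: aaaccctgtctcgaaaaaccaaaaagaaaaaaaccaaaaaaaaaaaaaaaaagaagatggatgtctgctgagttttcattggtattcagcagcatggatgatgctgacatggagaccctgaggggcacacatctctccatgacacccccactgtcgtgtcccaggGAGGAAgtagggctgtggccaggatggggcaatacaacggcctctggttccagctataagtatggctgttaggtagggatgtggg
Prtn3: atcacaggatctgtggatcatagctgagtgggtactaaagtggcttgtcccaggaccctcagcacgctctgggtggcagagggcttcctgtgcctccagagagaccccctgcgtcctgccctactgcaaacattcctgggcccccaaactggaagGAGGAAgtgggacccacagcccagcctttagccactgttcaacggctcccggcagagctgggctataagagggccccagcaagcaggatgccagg
Ctsg: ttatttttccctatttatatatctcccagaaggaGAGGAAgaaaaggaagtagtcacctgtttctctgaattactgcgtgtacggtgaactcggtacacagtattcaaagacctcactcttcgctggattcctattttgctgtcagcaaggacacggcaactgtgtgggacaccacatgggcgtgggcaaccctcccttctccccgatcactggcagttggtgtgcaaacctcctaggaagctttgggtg

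The match began 85 bases before the start in Elane and 95 bases before it in Prtn3, at 247 and 224 bases in Mpo and at 216 bases in Ctsg. Both strands were searched, and GAGGAA was found in 4 of 6 members and in 23.3% of 32851 promoter windows of the same length. The MYB-like letters AACNGT were found in Mpo, Prtn3, Ctsg and Srgn (4 of 6 members) and in 22.3% of windows, overlapping no GAGGAA match. In Srgn some AACNGT matches overlapped each other or a TTNNGNAA match. The RUNX letters TGTGGT were found in Ctsg and Srgn, against 14% of windows, and the C/EBP-like letters TTNNGNAA in Ms4a3 and Srgn, against 36.8%. The GATA letters AGATAA, which resemble the site of the first EVI1 zinc finger domain, were in 0 of 6 members and in 9.99% of windows. These matches describe letters in a window and were not tested as binding sites.

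Factors known to control primary granule genes did not pass the test in either direction (0 of 12 measured, against 0.113% of all genes), with a median difference of -0.05 and 5 above 0. Gfi1, a repressor required for neutrophil development, read 522.3, 356.6 and 732.3 in Evi1 Tg 1, 2 and 3, against 1075, 790.2 and 825.1 in WT 1, 2 and 3, so every Evi1 Tg array lay below every WT array, as for 7.47% of all genes (difference -0.79, SE 0.259, limma adjusted p = 0.353). Ets1 had 141.2, 106.7 and 227.7 in Evi1 Tg, against 258.4, 497.4 and 308.4 in WT, again without overlap (difference -1.18, SE 0.329, limma adjusted p = 0.272). Spi1, which encodes PU.1, averaged 902.6 in Evi1 Tg and 918.1 in WT, a difference of -0.02. Cebpa differed by 0.04, Myb by -0.07, Runx1 by -0.27 and Cebpe by 0.27, each with overlapping groups. Cebpd differed by -0.41 (limma adjusted p = 0.473), with all Evi1 Tg arrays below all WT arrays. Irf8 differed by 0.66 (limma adjusted p = 0.485), with overlapping groups and a mean log2 intensity over the 6 arrays under the background limit.

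Genes for the maturation and inhibition of granule proteases also gave no call (0 of 13 measured, 8 above 0, median 0.07). The G6pc3 difference, of a glucose-6-phosphatase whose loss causes neutropenia in humans, was 0.44 (SE 0.146, limma adjusted p = 0.355), with all Evi1 Tg arrays above all WT arrays. Serpinb6a, a serpin, had -0.44 (SE 0.135, limma adjusted p = 0.324), with all Evi1 Tg arrays below. Ctsc, the dipeptidyl peptidase that activates the granule serine proteases, averaged 449.3 in Evi1 Tg and 404.8 in WT (difference 0.22). Serpinb1a, their cytosolic inhibitor, averaged 1088 in Evi1 Tg and 1319 in WT (difference -0.29), and the secreted inhibitor Slpi 1337 in Evi1 Tg and 892.7 in WT (difference 0.65, limma adjusted p = 0.501).

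Among 14 genes of granule sorting and release 0 passed, 5 had a difference above 0 and the median was -0.09 (-0.18 without WT 3). Cd63, a tetraspanin of the primary granule membrane, read 885, 825.7 and 1064 in Evi1 Tg 1, 2 and 3, against 1153, 1204 and 1475 in WT 1, 2 and 3. Its groups did not overlap, in the direction opposite to that of Mpo, and the difference was -0.47 (SE 0.137, limma adjusted p = 0.3). Ap3b1, a subunit of the adaptor that carries cargo to lysosome-related organelles, had -0.30 (SE 0.0871, limma adjusted p = 0.288).

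Late granule genes, which follow primary granule genes as neutrophils mature, had a median difference of -0.26, with 11 of 16 below 0, against 46.5% of all genes, and 0 called. That median depended on single arrays, at -0.55 without Evi1 Tg 3, 0.22 without Evi1 Tg 2, -0.45 without WT 3 and -0.05 without WT 2. Cd177, a surface protein of neutrophils, differed by -1.39 (SE 0.501, limma adjusted p = 0.399) and haptoglobin (Hp) by -0.30 (SE 0.114, limma adjusted p = 0.434). The summed intensity of the list was 12598, 10131 and 20960 in Evi1 Tg 1, 2 and 3, against 13911, 24126 and 11504 in WT 1, 2 and 3. The groups overlapped there, with Evi1 Tg 3 and WT 2 standing out as high, while the sum over the 7 primary granule genes was 24366, 22015 and 23880 in Evi1 Tg, against 17165, 19535 and 18388 in WT, without overlap.

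**Figure D3:**
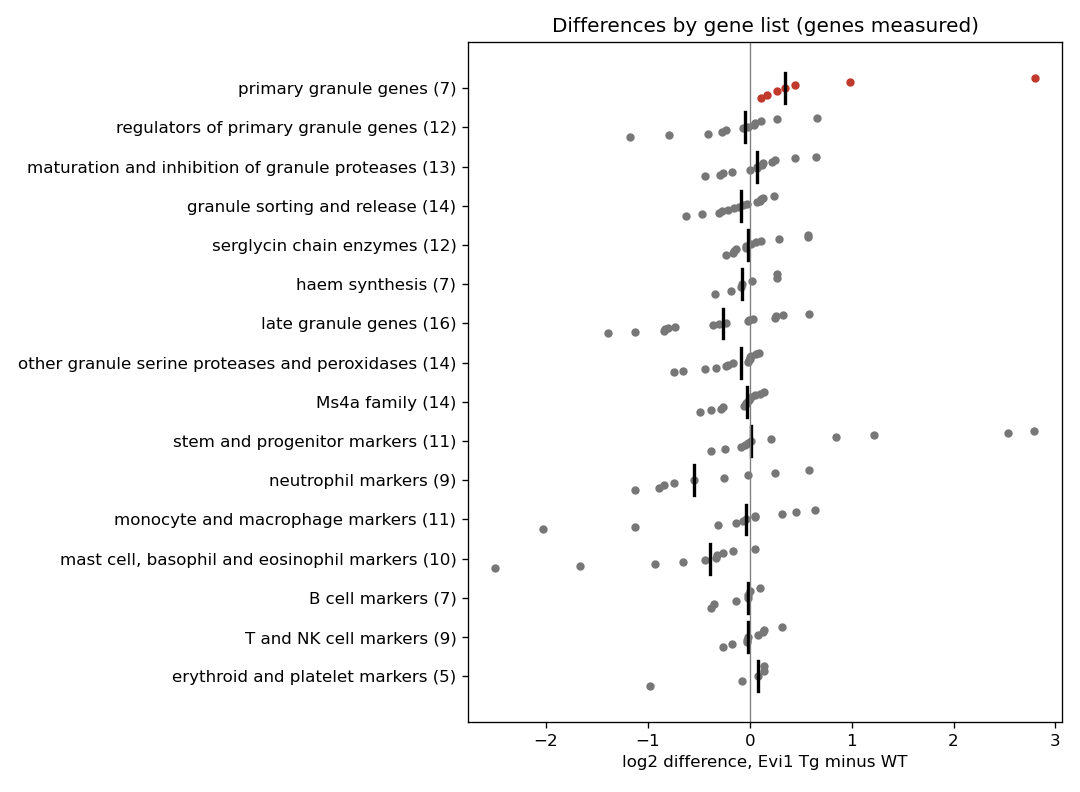
Log2 difference, Evi1 Tg minus WT (horizontal axis), of every measured gene in the primary granule list (red) and in 15 related lists (grey), with the list's median as a black bar and the number of genes measured in parentheses. The primary granule genes all lie above 0 with a median of 0.35, and the stem and progenitor markers hold 4 genes far to the right beside a median of 0.01.

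Markers of other cell types were set beside the members, since in bulk samples fewer cells of a type and less RNA per cell cannot be told apart. Of 11 measured stem and progenitor markers 0 passed and 6 had a difference above 0 (median 0.01), but Kit, Cd34, Erg and Meis1 had all Evi1 Tg arrays above all WT arrays. Kit, the stem cell factor receptor, read 210.6, 219 and 316.2 in Evi1 Tg 1, 2 and 3, against 90.6, 112.6 and 112 in WT 1, 2 and 3 (difference 1.22, SE 0.176, limma adjusted p = 0.0772). Erg, an ETS factor of stem cells, read 336.5, 522.7 and 417.6 in Evi1 Tg, against 40, 123.7 and 45.2 in WT (difference 2.79, SE 0.418, limma adjusted p = 0.0906). WT 1 and WT 3 lay below the background limit for Erg, as did all WT arrays for Cd34, so background bounds both differences. The summed intensity of the progenitor list was 2832 to 3772 in Evi1 Tg and 1556 to 2169 in WT. Meis1 alone gave 1215 to 1499 of this sum in Evi1 Tg and 494.4 to 1085 in WT, so it does not describe the whole list. Cd34 read 572.8, 812.2 and 86.7 in Evi1 Tg 1, 2 and 3, with Evi1 Tg 3 close to the background limit. Flt3, Gata2, Slamf1 and Hlf of that list had means under the background limit. The part of these progenitor markers in the Mpo difference was not tested.

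Neutrophil markers had a median of -0.55 (2 of 9 above 0, 0 called, and -0.12 without WT 2), with Csf3r at -0.55 and Mmp8 at 0.58, and their summed intensity of 3093 to 5552 in Evi1 Tg overlapped the 3152 to 8645 in WT. Monocyte and macrophage markers had a median of -0.04 (5 of 11 above 0, 0 called). Among these, Adgre1, which encodes F4/80, had -1.13 (SE 0.205, limma adjusted p = 0.139) and F13a1, the coagulation factor XIII A chain, -2.03 (SE 0.516, limma adjusted p = 0.241), each with all Evi1 Tg arrays below all WT arrays. In the same list Cd68 (0.64, limma adjusted p = 0.302) and Cx3cr1 (0.32, limma adjusted p = 0.349) had all Evi1 Tg arrays above all WT arrays. The summed intensity of the monocyte and macrophage list was 11978 to 13407 in Evi1 Tg and 12903 to 15372 in WT. Mast cell, basophil and eosinophil markers had a median of -0.39 (1 of 10 above 0, 0 called), with Hdc at -1.67 and Siglecf at -0.93, and the median was -0.66 without WT 1. Of these 10 genes 7 had a mean log2 intensity over the 6 arrays under the background limit, and Hdc, at a mean of 41.0 in Evi1 Tg and 151.5 in WT, was under it on the Evi1 Tg arrays alone. Their summed intensity was 466 to 576 in Evi1 Tg and 602 to 1571 in WT, where Cpa3 alone read 621.3 in WT 2 and 239.4 in WT 3. The cells carried the leukaemia genes Hoxa9 (368.7 in Evi1 Tg and 368.6 in WT, difference -0.02) and Meis1 (0.85), while 0 of 7 measured B cell markers and 1 of 9 T and NK cell markers (Nkg7) had a mean above the background limit. The part of neutrophil, monocyte and mast cell markers in the members' differences was not tested. Mecom itself read 38.6 in Evi1 Tg and 37.0 in WT, under the background limit, so the probe set did not check the transgene.

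Genes whose pattern was most like that of the members were ranked by Pearson correlation over the 6 arrays with the mean deviation of the 7 members, among 2234 genes above background and with an SD of at least 0.3. The closest were Lockd (r = 0.985), Btla (0.981), Zbed3 (0.978), Foxm1 (0.976), Miga1 (0.975) and Tspan2 (0.973), all without overlap between groups. Btla, an inhibitory receptor of lymphocytes, read 825.8, 728.8 and 782.6 in Evi1 Tg 1, 2 and 3, against 369, 368.3 and 566.9 in WT 1, 2 and 3, with WT 3 again the highest WT array. Foxm1, a transcription factor of mitotic genes, averaged 223.8 in Evi1 Tg and 144.7 in WT. The most opposite were Ddit4 and Homer1 (r = -0.983 each) and P2rx4 (-0.981). Ddit4, a stress-induced inhibitor of mTORC1, averaged 81.3 in Evi1 Tg and 136 in WT, and Homer1, a scaffold protein, passed the test (difference -0.96, SE 0.104, limma adjusted p = 0.0328). The mean deviation holds every member, and Mpo had the widest deviations among them. Its correlation was 0.959 with Mpo, 0.92 with Prss57, 0.826 with Elane, 0.794 with Ctsg and 0.72 with Prtn3. With Srgn it was 0.347 and with Ms4a3 0.223, so the ranking describes these 2 members poorly. These values describe 6 arrays that also differ by group, so any gene that separates the groups scores high.

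**Figure D4:**
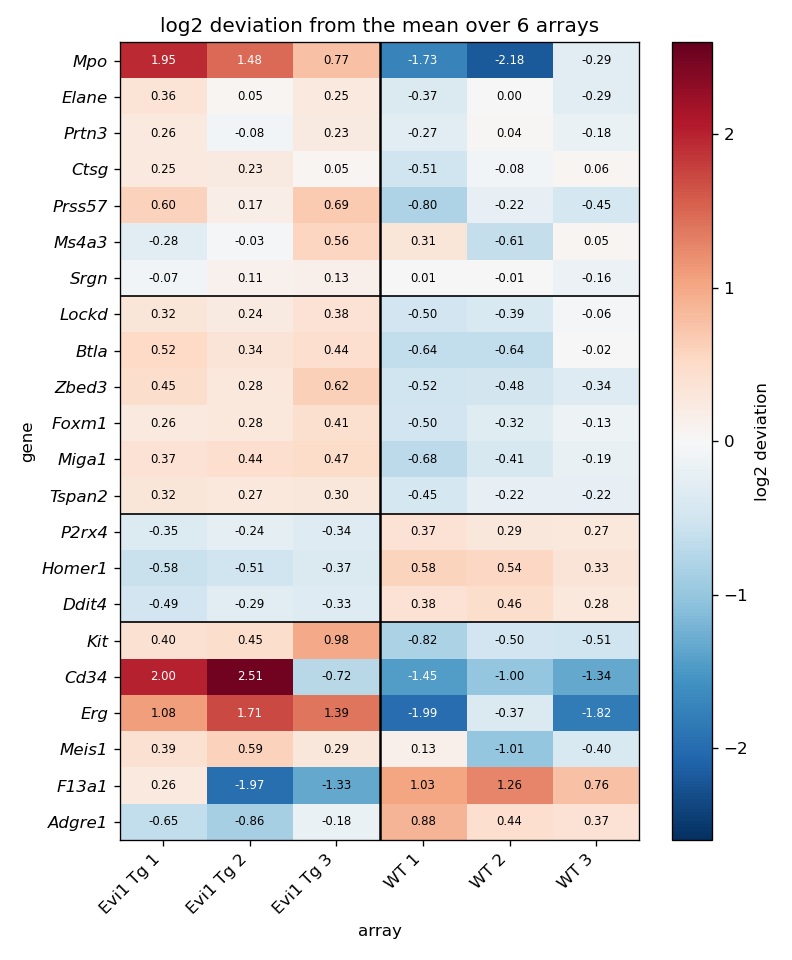
Log2 deviation of each gene (rows) from its mean over the 6 arrays (columns, Evi1 Tg left of the line and WT right of it). Rows are the 7 primary granule genes, the 6 most alike and 3 most opposite genes, and 6 markers of progenitors and of monocytes and macrophages. The 6 markers shown all separate the groups, and the other markers of their lists are not shown. Among those left out, Cd68 and Cx3cr1 separate the groups in the direction opposite to F13a1 and Adgre1. Mpo runs from 1.95 in Evi1 Tg 1 to -2.18 in WT 2, WT 3 lies nearest to 0 among the WT arrays for Mpo and for Btla, and Ms4a3 and Srgn show no division by group.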

How the data were processed

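Per the labels' protocols, biotinylated cDNA was prepared with a GeneChip WT PLUS kit. The authors deposited intensity values of 34351 probe sets on 6 arrays, whose range shows a linear scale. How they corrected background, normalized and summarised them stands in no source used here. Array medians of 51.6 to 55.4 were close, so a shift common to most genes could have been removed before deposit.

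Probe sets with 1 symbol in the platform annotation (23521) were used, of which 23328 were found in RefSeq (GRCm38.p6) and 0 renamed. The probe set with the highest mean was kept for each of 22180 genes. Log2 was taken of the intensity itself, without a pseudocount, and dim genes were kept. Evi1 Tg (n = 3) was compared with WT (n = 3) with limma 3.58.1 (lmFit, eBayes) under R 4.3.3. P-values were Benjamini-Hochberg adjusted over all genes, with 0.05 as the threshold. The number of arrays limits the precision. Exact permutation tests were two-sided. On simulated data for this comparison over 22180 genes, 200 genes were changed, all drawn from those with a mean above the background limit. Among these the procedure recovered 67% of 2-fold changes and 91% of 4-fold changes. It called 10 unchanged genes. No dim gene was changed and the simulated arrays had equal noise, so recovery for dim genes and for arrays of unequal weight was not tested.

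The members, the gene lists and the promoter motifs were chosen with earlier results of these data known. Of each list, the genes past the threshold or else the 2 with the smallest p were named, beside the members, the 6 most alike and 3 most opposite genes. Other list members and neighbours named were chosen after their values were seen. The alternatives were leaving out dim genes, quantile normalization, centring on the median, a trended robust eBayes, an ordinary test without moderation, array weights, a replicate block, every probe set or their mean, a pseudocount of 16 and leaving out each array. Averaging Evi1 Tg 1 and 2, the most alike arrays (r = 0.992 across genes), was added after seeing the data. Figures were drawn with matplotlib 3.10.9.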

Additional observations from a re-analysis of the deposited data

How the results depend on the processing

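The differences of Mpo, Elane, Prtn3, Ctsg, Prss57 and Srgn stayed above 0 in all 17 alternatives, and Ms4a3 ranged from -0.10 to 0.36 when 1 array was left out and was below 0 without Evi1 Tg 3 (-0.07) and without WT 2 (-0.10). With array weights the Mpo difference was 3.20 and passed, the median of the members was 0.48, and 1 member was called. When 1 array was left out the Mpo difference lay between 2.41 and 3.36, and 0 or 1 members were called, the call being Mpo without WT 3. Nothing in the labels says that replicate numbers pair the arrays. The correlations of deviations of same-numbered arrays were 0.19, -0.18 and 0.06, which with 3 arrays per group cannot settle whether they do. The replicate block left 0 genes called higher and 9 lower, with an adjusted p of 0.253 for Mpo and 0.268 for Prss57, and changed no call of a member. Over all genes 2 were called higher and 23 lower. The counts were 6 higher with dim genes left out, 6 higher with trend and robust settings, 0 and 0 with the ordinary test, 32 and 82 with array weights, 0 and 9 with a pseudocount of 16, and 0 and 6 with Evi1 Tg 1 and 2 averaged. Leaving out 1 array gave 0 to 383 higher and 2 to 173 lower, with both highest counts without WT 3. Of 254 list medians under the alternatives, 238 stayed within 1 SD between replicates. With dim genes left out the median was -0.09 for serglycin chain enzymes, -0.27 for the Ms4a family, 0.85 for stem and progenitor markers, -0.26 for T and NK cell markers and -0.98 for erythroid and platelet markers, where fewer genes remained. With array weights it was 0.02 for haem synthesis and 0.03 for monocyte and macrophage markers. Leaving out 1 array gave ranges of -0.18 to -0.02 for granule sorting, -0.12 to 0.01 for haem synthesis, -0.67 to -0.12 for neutrophil markers, -0.11 to 0.15 for monocyte and macrophage markers, -0.08 to 0.0 for B cell markers and -0.04 to 0.08 for T and NK cell markers. The cause of these shifts was not tested. Signal near background limits Mpo and Prss57 in WT.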

Other observations

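Enzymes that build the sugar chains of serglycin had a median difference of -0.02, with 6 of 12 measured genes above 0 and 0 called. Xylt1, the xylosyltransferase that starts such chains, read 80.5, 77.7 and 77.7 in Evi1 Tg 1, 2 and 3, against 49.3, 55.6 and 54.7 in WT 1, 2 and 3 (difference 0.57, SE 0.0833, limma adjusted p = 0.0828). All its WT arrays lay under the background limit of 74.9 and its Evi1 Tg arrays close above it, so background bounds this difference. Chsy1, a chondroitin synthase, read 1412, 1702 and 990.1 in Evi1 Tg, against 960.9, 877.1 and 857 in WT (difference 0.57, SE 0.190, limma adjusted p = 0.361). Both had all Evi1 Tg arrays above all WT arrays, as for 7.08% of all genes. For 1 of the 12, B4galt7 (-0.14), they lay below, as for 7.47% of all genes. The groups of Srgn itself overlapped.

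Haem synthesis, which supplies the cofactor of myeloperoxidase, had a median difference of -0.08 over 7 measured genes, with 3 above 0 and 0 called. Urod had 0.27 and Fech -0.34, and Alas1, the first enzyme of the pathway, averaged 4990 in Evi1 Tg and 5628 in WT (difference -0.18). Other granule serine proteases and peroxidases were dark, with 13 of 14 measured genes under the background limit, a median of -0.09 and 0 called, among them Cma1 at -0.44 and Tpsb2 at -0.74. The Ms4a family other than Ms4a3 had a median of -0.03, with 10 of 14 genes below 0 and 0 called, and Ms4a7 had -0.38 and Ms4a6d -0.49. Only 4 of these 14 genes had a mean above the background limit, and Ms4a7 lay under it on every array. Of the B cell markers Cd79b had -0.38 and Blnk -0.35 (median -0.02), and of the T and NK cell markers Cd3g had 0.32 and Cd8a -0.17 (median -0.02). Erythroid and platelet markers had a median of 0.08 over 5 measured genes, with Pf4 at -0.98 and Car1 at 0.14. Of these 5 only 1, Pf4, had a mean above the background limit.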
